A study of Drosophila melanogaster with 20 samples.

Results

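Female larvae that made C96Y human proinsulin in the developing eye were compared with female larvae that made wild-type human proinsulin. The comparison rests on 8 of the 20 arrays in the series, chosen by the sex and line in the sample labels: 4 arrays of C96Y females (lines Mut-1 and Mut-101, 2 arrays each) and 4 arrays of wild-type females (lines WT-6 and WT-24, 2 arrays each). The 2 arrays of non-transgenic females served as a second control, and the 8 arrays of C96Y and wild-type males as a separate set of samples. Every group carried the GMR-GAL4 driver, the non-transgenic flies included, and the transgenic flies carried 1 copy of a UAS transgene, UAS-hINSC96Y in the mutant lines and UAS-hINSWT in the others. The flies were kept at 25 °C, and RNA was taken from the eye imaginal discs of third-instar larvae. Each C96Y or wild-type form was thus represented by 2 transgenic lines, and the transgene's own transcript was not analysed here, so an effect of the mutation and an effect of how strongly each line expressed its transgene cannot be told apart.

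Proinsulin is the precursor of insulin and folds in the endoplasmic reticulum (ER), where chaperones hold it and oxidoreductases form its disulphide bonds. The C96Y form lacks a cysteine that takes part in a disulphide bond, and in mice the same substitution is known from the Akita strain, in which the protein misfolds in beta cells. Misfolded protein in the ER is sensed by PERK, IRE1 and ATF6, which start the unfolded protein response (UPR), and terminally misfolded chains are sent to the proteasome by ER-associated degradation. An imaginal disc is a larval epithelium that will form an adult structure. In the eye disc a furrow sweeps across the tissue and leaves differentiating photoreceptor clusters behind it, which is where the GMR driver is active, so a disc holds cells with and without transgene expression.

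The female arrays had similar overall signal, with array means of 1194 to 1222 intensity units and medians of 213 to 236 over the 10 female arrays. Arrays of the same line correlated at 0.987 to 0.993 on the log2 scale over the tested probe sets, and C96Y arrays correlated with wild-type arrays at 0.979 to 0.991. Eye disc genes were bright on all female arrays, with eya at 6891 to 8402 units and dac at 7761 to 9478. Some arrays also held transcripts of other tissues. Summed salivary gland markers were 28218 and 15961 units in Mut-1 and 5096 and 8937 in Mut-101, against 17715 and 27467 in WT-6 and 11488 and 7709 in WT-24. They were thus higher in Mut-1 than in Mut-101, and the wild-type lines spanned a similar range. Summed muscle markers were 17763 units on non-transgenic replicate 1 and at most 11247 on the other female arrays. Transcripts of the ring gland, the endocrine organ beside the brain that makes the steroid hormone ecdysone, were high on 3 control arrays: the ecdysone synthesis gene spok read 70.8 and 149 units in Mut-1 and 52.5 and 19.4 in Mut-101, against 3485 and 33.6 in WT-6 and 28.7 and 4385 in WT-24, with 2538 and 60.0 in non-transgenic females. Thus 1 array of each wild-type line and 1 non-transgenic array had this signal and none of the 4 C96Y arrays did. The fat body gene Fbp1 read 627 and 388 units in Mut-1 and 144 and 130 in Mut-101, against 120.3 and 228 in WT-6 and 5992 and 119 in WT-24, so that only WT-24 replicate 1 was above 1000 units. Lsp2, another fat body gene, read 2636 and 3344 units in Mut-1 and 687 and 502 in Mut-101, against 357 and 1177 in WT-6 and 7750 and 307 in WT-24, and was thus raised in both Mut-1 arrays as well. Summed levels of the ring gland list were 5625 to 6488 units in C96Y females and 5790 to 15468 in wild-type females, and those of the fat body list 6978 to 13950 units in C96Y females and 6425 to 27709 in wild-type females. No marker of ring gland, fat body, salivary gland or muscle passed the test between C96Y and wild-type females (limma), and no marker was at 0. Over all tested probe sets 6.55% passed. The part of these tissues in the results was not tested. Counts below are also given without the 3 arrays with ring gland transcripts and without the array with fat body transcripts.

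**Figure D1:**
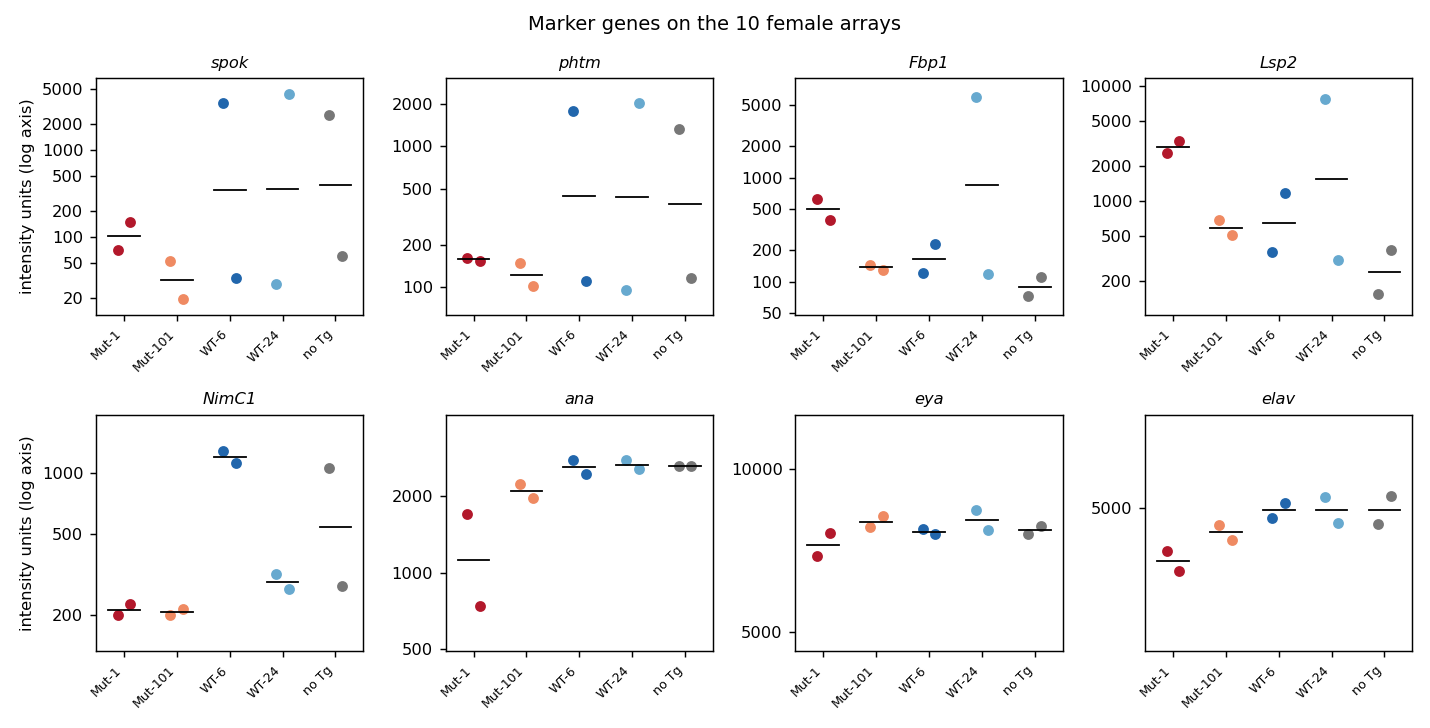
Intensity (units, log axis) of ring gland genes (spok, phtm), fat body genes (Fbp1, Lsp2), a haemocyte gene (NimC1), a glial gene (ana) and eye disc genes (eya, elav) on the 10 female arrays, 1 point per array, with a bar at the mean of the log values of each line. WT-6, WT-24 and the non-transgenic discs (no Tg) each have 1 array with over 1000 units of spok, and WT-24 replicate 1 has 5992 units of Fbp1.

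C96Y females differed from wild-type females at 672 of 10262 probe sets tested (6.55%; limma, Benjamini-Hochberg adjusted p under 0.05). Of these, 421 were higher in C96Y females (4.1% of those tested) and 251 lower (2.45%), and 29 of the higher and 7 of the lower ones changed more than 2-fold. Most changes were small: 560 of the 672 were under 0.5 on the log2 scale, and the median size was 0.271, against 0.0861 over all tested probe sets. With each array centred on its own median, the split was 322 higher and 291 lower (52.5% higher, against 62.6% in the values as deposited), so the balance between rises and falls depends on the scaling. In 552 of the 672 the 4 C96Y arrays and the 4 wild-type arrays did not overlap, which held for 13.5% of all tested probe sets (8.21% with C96Y higher and 5.3% with C96Y lower). The direction was the same in all 4 pairings of a mutant with a wild-type line for 653 of the 672. These calls were selected on the same arrays, and the share among all tested probe sets was not computed, so this count is descriptive only. The test measures the spread between arrays of 1 line. With the lines themselves as replicates, 2 against 2, only 3 probe sets passed: Pepck1, CG13840 and the unnamed probe set 1635227_at. Leaving out the 3 arrays with ring gland transcripts left 172 calls, 153 of them among the 672, and leaving out the array with fat body transcripts left 352. Leaving out Mut-101 replicate 2, Mut-1 replicate 2 or WT-6 replicate 1 left 245, 314 or 308.

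The largest rises with a gene name were those of CG9313 and CG14545, which were dim in wild-type discs, followed by the chitin deposition gene reb. CG9313 (chromosome 2R) read 1065 and 1478 units in Mut-1 and 306 and 361 in Mut-101, against 61.7 and 50.9 in WT-6 and 54.4 and 54.5 in WT-24, with 48.8 and 62.2 in non-transgenic females. Its level was highest in Mut-1, intermediate in Mut-101 and alike in all discs without the mutant protein. The change was 3.55 ± 0.134 on the log2 scale (SE; limma adjusted p = 3.2e-09), or 11.7-fold. CG14545 (chromosome 3R) read 1202 and 1242 units in Mut-1 and 190.1 and 200.4 in Mut-101, against 54.9 and 53.3 in WT-6 and 48.3 and 57.0 in WT-24, with 54.5 and 49.1 in non-transgenic females, a log2 change of 3.20 ± 0.122 (adjusted p = 3.2e-09, limma). Both Mut-1 arrays stood about 1000 units above both Mut-101 arrays, and those stood clear of every wild-type and non-transgenic array. The table gives no background level, and the wild-type values of both genes lie below the lowest mean of any tested probe set, 158 units. The same holds for reb, CG13272 and CG10184 below. These genes passed the filter on the mean level only through C96Y arrays, so that they had to differ to be tested, and their folds are approximate. CG9313, CG14545, reb and CG13272 were also called without the filter.

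Rebuff (reb, chromosome 2R), which acts in chitin deposition, read 1141 and 1370 units in Mut-1 and 271 and 359 in Mut-101, against 114 and 105 in WT-6 and 104 and 98.7 in WT-24. No C96Y array reached down to the wild-type range, and Mut-1 was again above Mut-101. The log2 change was 2.57 ± 0.165 (about 5.93-fold from a dim wild-type level, limma adjusted p = 1.21e-06). Cda5 (chromosome 2L), a chitin deacetylase gene, read 1337 and 1894 units in Mut-1 and 1169 and 1100 in Mut-101, against 479.9 and 444 in WT-6 and 474 and 314 in WT-24, a rise of 1.67 ± 0.152 on the log2 scale (adjusted p = 3.19e-05, limma). Here the lines differed less: the lowest C96Y array, at 1100 units, lay well above the highest wild-type array, at 479.9. The gene daw (dawdle, chromosome 2L), which encodes a secreted activin-type ligand, read 917 and 1306 units in Mut-1 and 379.5 and 533 in Mut-101, against 157 and 166 in WT-6 and 194 and 163 in WT-24. All 4 C96Y arrays lay above all wild-type arrays, and the log2 change was 2.05 ± 0.223 (4.14-fold, limma adjusted p = 0.000135).

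Metabolic and detoxification genes were among the other large rises. GstE6 (chromosome 2R), a glutathione S-transferase of a gene cluster with similar members, read 1389 and 1480 units in Mut-1 and 358 and 453 in Mut-101, against 238 and 193 in WT-6 and 158 and 145 in WT-24, a log2 change of 2.08 ± 0.404 (adjusted p = 0.00897, limma). The call ended without line Mut-1 (1.16, adjusted p = 0.346) and without the arrays with ring gland transcripts (2.12, adjusted p = 0.104, limma), although the groups did not overlap. Pepck1 (chromosome 2R), the phosphoenolpyruvate carboxykinase of gluconeogenesis, read 2778 and 4010 units in Mut-1 and 2331 and 3399 in Mut-101, against 1140 and 1051 in WT-6 and 1436 and 832 in WT-24. Both mutant lines were alike and clear of both wild-type lines, with a log2 change of 1.49 ± 0.196 (2.80-fold, limma adjusted p = 0.000691). Tret1-1 (chromosome 2R), a trehalose transporter gene, read 1122 and 1508 units in Mut-1 and 1034 and 1126 in Mut-101, against 488 and 416 in WT-6 and 543 and 353 in WT-24, a rise of 1.41 ± 0.216 on the log2 scale (adjusted p = 0.00196, limma). Its groups did not overlap either, but without Mut-1 the adjusted p was 0.0587 at nearly the same change (1.28, limma).

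Among genes named only by an identifier, CG13272 averaged 379 ± 118 units in C96Y females and 119 ± 12.9 in wild-type females (SD, n = 4 each), a log2 change of 1.63 ± 0.0934 from a dim wild-type level (limma adjusted p = 3.59e-07). CG15784 averaged 3053 ± 709 units in C96Y females and 1006 ± 59.3 in wild-type females (log2 1.57 ± 0.234), and CG8620 651 ± 366 units in C96Y females and 201 ± 26.6 in wild-type females (log2 1.53 ± 0.231), but both calls ended without Mut-1. All 3 had C96Y arrays above every wild-type array. CG32249 read 926 and 2369 units in Mut-1 and 159 and 132 in Mut-101, against 215 and 74.3 in WT-6 and 60.1 and 83.6 in WT-24, so that its rise (2.29 ± 0.611, limma adjusted p = 0.0420) came from Mut-1 alone and the groups overlapped. Without Mut-1 it was 0.61 (adjusted p = 0.739, limma), and the male discs gave -0.69. Its wild-type arrays other than WT-6 replicate 1 lay below the lowest mean of any tested probe set, 158 units. Its call ended without the filter on the mean level, and its fold is approximate. Probe sets with no gene name in the platform table, singled out after their values were seen, included the one with the largest rise of all. Probe set 1635227_at read 7747 and 9254 units in Mut-1 and 5369 and 6006 in Mut-101, against 573 and 681 in WT-6 and 481 and 502 in WT-24, a 12.5-fold difference (log2 3.65 ± 0.0911, limma adjusted p = 3.79e-11), and it passed under all 22 alternative settings tried. Probe set 1626830_at read 4386 and 6420 units in Mut-1 and 555 and 416 in Mut-101, against 581 and 188 in WT-6 and 125 and 279.9 in WT-24, high in Mut-1 females only, and its change in males was -1.06.

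**Figure D2:**
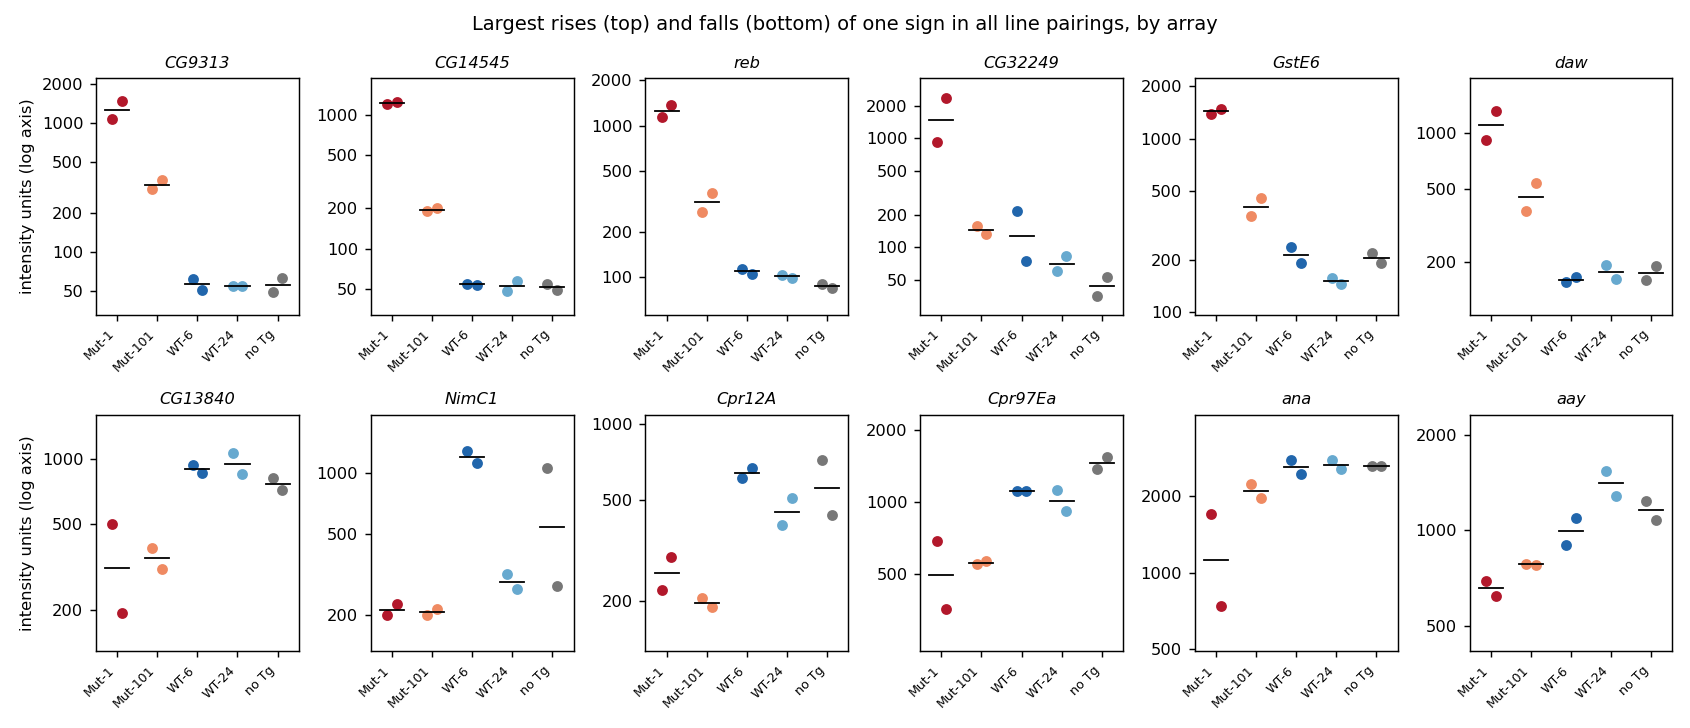
Intensity (units, log axis) of the 6 genes with the largest rises (top row) and the 6 with the largest falls (bottom row), among called genes with the same sign in all 4 pairings of a mutant with a wild-type line, on the 10 female arrays, 1 point per array, with a bar at the mean of the log values of each line; Mut-1 and Mut-101 carry C96Y, WT-6 and WT-24 carry wild-type proinsulin, and no Tg stands for the non-transgenic discs. CG9313, CG14545, reb, GstE6 and daw were highest in Mut-1 and intermediate in Mut-101, CG32249 was high only in Mut-1, and NimC1 separated WT-6 from the other transgenic lines.

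Among called genes with 1 sign in all line pairings, the largest falls were smaller than the largest rises and fell on cuticle genes, a haemocyte gene and genes known by identifier. CG13840 (chromosome 3R) read 500.4 and 193 units in Mut-1 and 387 and 309 in Mut-101, against 937 and 855 in WT-6 and 1058 and 846 in WT-24, with 812 and 719 in non-transgenic females. It fell in both mutant lines, with no overlap between the groups, by 1.49 ± 0.240 on the log2 scale (2.81-fold, limma adjusted p = 0.00289). Without the arrays with ring gland transcripts its change was -1.54 (adjusted p = 0.0504, limma). NimC1 (chromosome 2L), a phagocytosis receptor gene of larval haemocytes, read 200.1 and 228 units in Mut-1 and 200.2 and 216 in Mut-101, against 1276 and 1112 in WT-6 and 319.6 and 268 in WT-24, with 1050 and 278 in non-transgenic females. The 4 C96Y arrays were the lowest, but the wild-type lines differed from each other by more than WT-24 differed from the mutants, and 1 of the 2 non-transgenic arrays was high. Its log2 change of -1.49 ± 0.286 (adjusted p = 0.00857, limma) became -0.47 (adjusted p = 0.586) without line WT-6. In whole discs, fewer cells of a type and less RNA per cell cannot be told apart. NimC1 was the only one of 15 tested haemocyte markers that passed, the highest log2 change in the list was 0.30, and the list's summed level was 41570 to 49126 units in C96Y females and 50605 to 52830 in wild-type females. The 1 call is 6.67% of the tested list, against 2.45% of all tested probe sets called lower. The part of haemocytes in the change of NimC1 was not tested.

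Cpr12A (chromosome X) and Cpr97Ea (chromosome 3R), which encode cuticle proteins, fell by 1.26 ± 0.218 and 1.02 ± 0.171 on the log2 scale (limma adjusted p = 0.00468 and 0.00387). Cpr12A read 222 and 298 units in Mut-1 and 205 and 189.9 in Mut-101, against 614 and 673 in WT-6 and 398 and 510.1 in WT-24, and Cpr97Ea read 691 and 356 units in Mut-1 and 549 and 567 in Mut-101, against 1114 and 1115 in WT-6 and 1127 and 916 in WT-24. For both, every C96Y array lay below every wild-type array, and both calls ended without line WT-6 (adjusted p = 0.0866 for Cpr12A and 0.0545 for Cpr97Ea, limma). The glial glycoprotein gene ana (anachronism, chromosome 2R) read 1703 and 736 units in Mut-1 and 2218 and 1951 in Mut-101, against 2759 and 2437 in WT-6 and 2749 and 2539 in WT-24. It fell by 0.78 ± 0.192 (adjusted p = 0.0300, limma), mainly in Mut-1, and by 0.33 without that line (adjusted p = 0.228). The direct test between the mutant lines did not call it. Of 9 tested glial markers ana was the 1 called lower, while 1 other was called higher, and 4 had positive changes, up to 0.45. Each call is 11.1% of the tested list, against 4.1% higher and 2.45% lower of all tested probe sets. The phosphoserine phosphatase gene aay (chromosome 3L) averaged 719 ± 76.8 units in C96Y females and 1206 ± 274 in wild-type females (SD, n = 4 each), a log2 change of -0.72 ± 0.201 that barely passed (limma adjusted p = 0.0492) and ended under 19 of 22 alternatives.

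CG18508 (chromosome X) and CG33978 (chromosome 4) had small but even falls. CG18508 read 1607 and 1323 units in Mut-1 and 1364 and 1447 in Mut-101, against 2174 and 2100 in WT-6 and 2146 and 2144 in WT-24, and CG33978 read 1186 and 1014 units in Mut-1 and 1267 and 1086 in Mut-101, against 1983 and 1672 in WT-6 and 1722 and 1643 in WT-24. Neither overlapped, and the log2 changes were -0.58 ± 0.0714 and -0.63 ± 0.0899 (limma adjusted p = 0.000393 and 0.00127). A second probe set of CG33978 gave -0.14 (limma unadjusted p = 0.0919). CG7607 read 284 and 223 units in Mut-1 and 219 and 263 in Mut-101, against 222 and 309.7 in WT-6 and 558 and 484 in WT-24, so only WT-24 stood apart, and its change of -0.59 ± 0.114 was -0.097 without that line (adjusted p = 0.802, limma). The zinc finger gene klu (-0.55 ± 0.137), Osi4 of the Osiris family (-0.55 ± 0.121) and CG13284 (-0.71 ± 0.193) complete the 12 largest of these named falls, and each of these 3 calls ended when line Mut-1, line WT-24 or the array with fat body transcripts was left out.

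Genes of the ER folding machinery were higher in C96Y females, by small amounts apart from Sil1. Of 26 listed ER chaperones and folding enzymes 23 were bright enough to be tested, and of these 8 rose (34.8%, against 4.1% of all tested probe sets), 1 fell and 14 were not called, and the median log2 change of the list was 0.12, against -0.0017 over all tested probe sets. This list and those below were chosen with earlier results of these data known, so their shares describe the lists and do not test them. Sil1 (chromosome 3R), a nucleotide exchange factor that acts on the ER chaperone BiP, read 3512 and 3762 units in Mut-1 and 2469 and 2406 in Mut-101, against 1460 and 1689 in WT-6 and 1693 and 1644 in WT-24. All C96Y arrays were above all wild-type arrays, with Mut-1 above Mut-101, and the log2 change was 0.88 ± 0.0673 (1.84-fold, limma adjusted p = 5.48e-06). Manf (chromosome 3R), a secreted ER-resident neurotrophic factor, read 9332 and 9994 units in Mut-1 and 8135 and 8488 in Mut-101, against 6884 and 6947 in WT-6 and 7318 and 7126 in WT-24, a log2 change of 0.34 ± 0.0475 (adjusted p = 0.00102, limma). P58IPK (chromosome 3R), a J-domain partner of BiP, read 3912 and 4178 units in Mut-1 and 3493 and 3478 in Mut-101, against 2795 and 2857 in WT-6 and 2980 and 2899 in WT-24, a log2 change of 0.38 ± 0.0586 (adjusted p = 0.00209, limma). In both genes the arrays fell in the same order, Mut-1 highest, Mut-101 next and the wild-type arrays lowest without overlap.

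BiP itself, encoded by Hsc70-3 (chromosome X), was one of the brightest probe sets and moved little. It read 16829 and 16017 units in Mut-1 and 16259 and 15632 in Mut-101, against 15122 and 14683 in WT-6 and 14892 and 14987 in WT-24, with 15246 and 15492 in non-transgenic females. The groups did not overlap, but the rise was 0.12 ± 0.0285 on the log2 scale, 1.08-fold (limma adjusted p = 0.0285), and the call ended in 14 of 22 alternatives. These included leaving out Mut-1 (0.096, adjusted p = 0.235), Mut-101 (adjusted p = 0.0502), the ring gland arrays (adjusted p = 0.145) or the fat body array (adjusted p = 0.0796, limma). The thiol oxidase gene Ero1L rose by 0.54 ± 0.136, the protein disulphide isomerase gene CaBP1 by 0.24 ± 0.0429, the J-domain gene shv by 0.33 ± 0.0740 and the large ER chaperone gene Grp170 by 0.23 ± 0.0589. CG9302 was the 1 member that fell (-0.13 ± 0.0358). The male discs gave a list median of 0.20. Without the arrays with ring gland transcripts the list had 2 higher and 0 lower at a median of 0.11, without the fat body array 5 higher and 0 lower, and without Mut-1 1 higher and 0 lower. The 1 call left without Mut-1 was Sil1 (0.59, limma adjusted p = 0.00403), while Manf had 0.23 and P58IPK 0.27 (adjusted p = 0.0648 and 0.0999). The calls of Hsc70-3, Ero1L, shv, Grp170 and CG9302 also ended when some single arrays were left out.

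The sensors of the UPR were not called, and few genes of its PERK-ATF4 branch were. Of 20 listed members 17 were tested, and of these 2 rose, 1 fell and 14 were not called, with a median of 0.015. Thus 11.8% rose and 5.88% fell, against 4.1% and 2.45% of all tested probe sets. AsnS (chromosome 3L), asparagine synthetase, read 780.1 and 1028 units in Mut-1 and 749 and 903 in Mut-101, against 410 and 470.3 in WT-6 and 414 and 419.8 in WT-24. Both mutant lines lay above the wild-type lines with no overlap, a log2 change of 1.004 ± 0.116 (limma adjusted p = 0.000230), and the call ended only with the lines as replicates. Gadd45 (chromosome 2R), a stress-induced gene, read 706 and 582 units in Mut-1 and 405 and 446 in Mut-101, against 344 and 417 in WT-6 and 357 and 352 in WT-24, a log2 change of 0.51 ± 0.0972 (adjusted p = 0.00810, limma). Its groups overlapped, since 1 Mut-101 array lay below the highest WT-6 array, and without Mut-1 the change was 0.21 (adjusted p = 0.442). The third called member was aay, whose fall barely passed and ended under 19 of 22 alternatives, as described above. No member was called lower under quantile normalization or when any 1 line was left out. The PERK gene PEK had a log2 change of 0.22 ± 0.0603 (limma adjusted p = 0.0503), Ire1 -0.015 ± 0.0667, Atf6 -0.16 ± 0.072 and crc, the ATF4 gene, -0.015 ± 0.0191, none of them called.

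Of 20 listed genes of ER-associated degradation 18 were tested, and of these 2 rose and none fell, with a median of 0.063. The rises were 11.1% of those tested, against 4.1% of all tested probe sets. Der-1 (chromosome 2L), a channel component for misfolded ER proteins, read 3664 and 3937 units in Mut-1 and 3206 and 3402 in Mut-101, against 2729 and 2742 in WT-6 and 2714 and 2763 in WT-24. The wild-type arrays were nearly equal and every C96Y array lay above them, a log2 change of 0.37 ± 0.0413 (1.29-fold, limma adjusted p = 0.000163). Herp, an ER membrane protein of the same process, averaged 2797 ± 136 units in C96Y females and 2287 ± 145 in wild-type females (log2 0.29 ± 0.0642, limma adjusted p = 0.0183). Its call ended in 11 of 22 alternatives, among them leaving out Mut-1 (adjusted p = 0.160), WT-6 (adjusted p = 0.125), WT-24 (adjusted p = 0.0585) or the ring gland arrays (adjusted p = 0.174, limma). Der-2, the paralogue of Der-1, had 0.17 ± 0.0513 (adjusted p = 0.0640, limma) and was not called. None of 26 tested proteasome genes was called, against 6.55% of all tested probe sets (limma). Their list median was -0.0016, and the largest of their log2 changes was 0.15. At an unadjusted p under 0.05, 2292 of the 10262 probe sets passed in this comparison, and the proteasome gene with the smallest p, Rpt4, had 0.092 ± 0.0331 (adjusted p = 0.117).

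The steps before and after folding rose in part. Among 23 tested genes of ER translocation, signal peptidase and glycosylation, 3 rose and none fell: SrpRalpha, the signal recognition particle receptor (0.22 ± 0.0590), Sec61beta, a translocon subunit (0.18 ± 0.0416), and Spase25, a signal peptidase subunit (0.18 ± 0.0394). The rises were 13% of those tested, against 4.1% of all tested probe sets. The list median was 0.041, and no member passed once the arrays with ring gland transcripts or the array with fat body transcripts were left out. Among 24 tested genes listed under COPI and COPII transport between ER and Golgi, 5 rose and none fell, with a median of 0.11. The rises were 20.8% of those tested, against 4.1% of all tested probe sets. Slh averaged 2603 ± 150.3 units in C96Y females and 1940 ± 125 in wild-type females (log2 0.42 ± 0.0700, limma adjusted p = 0.00345). Tango14 averaged 1874 ± 105 units in C96Y females and 1408 ± 128 in wild-type females (log2 0.42 ± 0.0593), and Sec22, a SNARE gene, 5632 ± 401 units in C96Y females and 4342 ± 166 in wild-type females (log2 0.37 ± 0.0666). In each of these 3 genes all C96Y arrays were above all wild-type arrays. The coat genes deltaCOP and Sec24CD rose by 0.24 ± 0.0530 and 0.24 ± 0.0651. Without the arrays with ring gland transcripts the transport list had 1 higher and 0 lower, without the fat body array 4 higher and 0 lower and without Mut-1 1 higher and 0 lower.

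**Figure D3:**
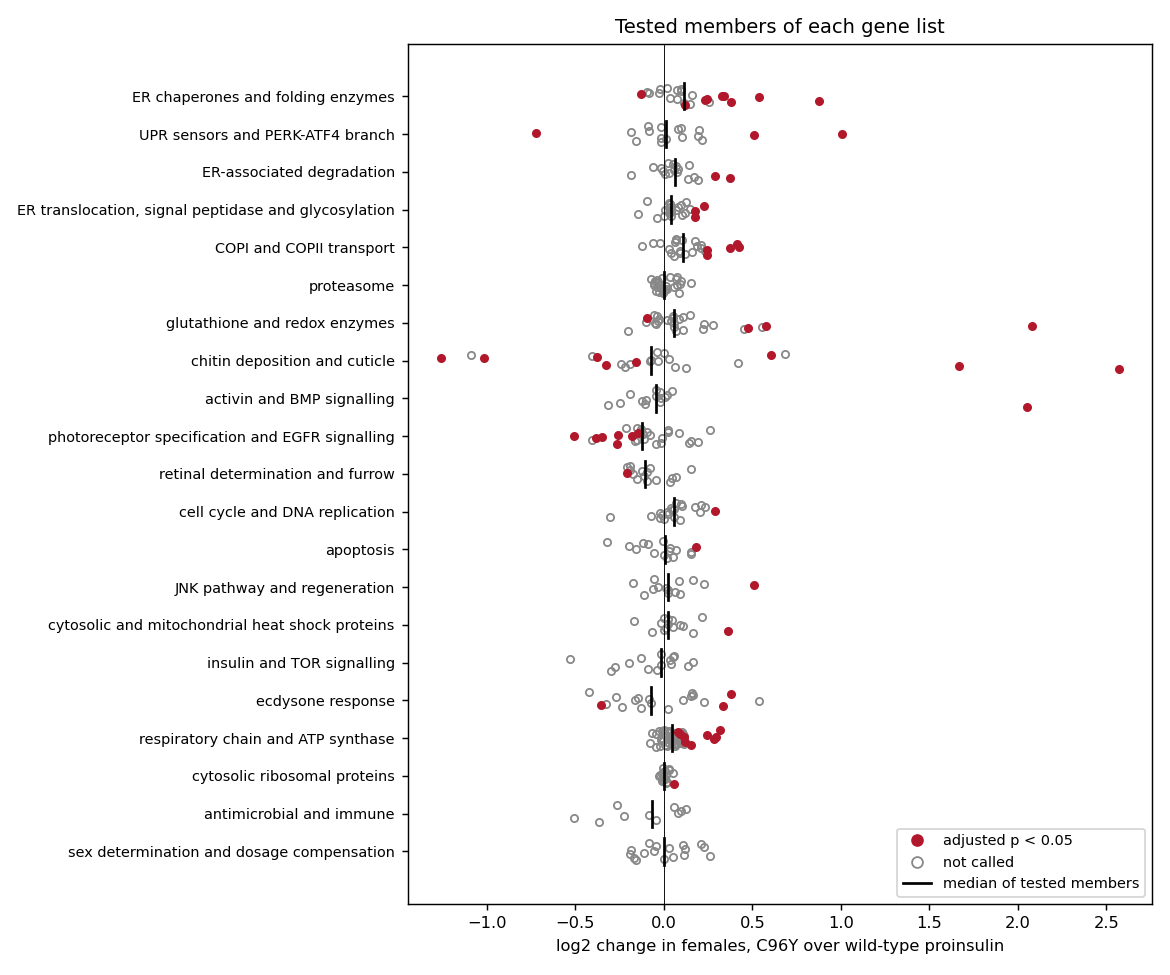
Log2 change in females, C96Y over wild-type proinsulin, of each tested member of 21 gene lists, 1 point per gene, filled where the adjusted p was under 0.05 (limma), with a black bar at the list's median. ER chaperone and COPI and COPII transport genes lie mostly right of 0, photoreceptor and EGFR genes mostly left of it, and proteasome and ribosomal protein genes close to 0.

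Some photoreceptor genes fell in C96Y females and most were not called. Of 36 listed genes of photoreceptor specification and EGFR signalling 28 were tested, and of these none rose and 7 fell (25%, against 2.45% of all tested probe sets), with a median of -0.12. This list, too, was chosen with earlier results of these data known, so its share is descriptive. The spalt genes salm (chromosome 2L) and salr, transcription factors that define photoreceptor subtypes, fell by 0.39 ± 0.0772 and 0.35 ± 0.0614 on the log2 scale (limma adjusted p = 0.0107 and 0.00534). The salm probe set read 2234 and 1874 units in Mut-1 and 2635 and 2121 in Mut-101, against 2941 and 2746 in WT-6 and 2994 and 2822 in WT-24, and salr read 1083 and 1089 units in Mut-1 and 1355 and 1199 in Mut-101, against 1550 and 1430 in WT-6 and 1491 and 1517 in WT-24. In both, each C96Y array lay below each wild-type array, and Mut-1 was lower than Mut-101 on average. The pan-neuronal gene elav (chromosome X) read 4021 and 3641 units in Mut-1 and 4589 and 4241 in Mut-101, against 4751 and 5127 in WT-6 and 5260 and 4624 in WT-24, a log2 change of -0.26 ± 0.0557 (adjusted p = 0.0145, limma), again without overlap. Egfr, the receptor that recruits photoreceptors, changed by -0.26 ± 0.0542, the cadherin gene CadN by -0.51 ± 0.135, gl (glass, a photoreceptor transcription factor) by -0.18 ± 0.0451 and aop (yan, a repressor in the same pathway) by -0.14 ± 0.0392. The groups overlapped for gl and aop.

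The list median was lower in Mut-1 than in Mut-101, and the calls depended on which lines were kept. None of the 7 genes that fell was called in the direct test of Mut-1 against Mut-101 (limma). Mut-1 gave a list median of -0.18 and Mut-101 one of -0.047, each set against the same wild-type arrays, and -0.063 in males. Without Mut-1 the list had 0 higher and 0 lower, and without the arrays with ring gland or fat body transcripts 0 higher and 2 lower in each case, at medians of -0.10 and -0.11. Without WT-24 it had 1 higher and 0 lower, without WT-6 0 higher and 1 lower, and without Mut-101 0 higher and 8 lower. Without Mut-1, salm and salr had log2 changes of -0.28 and -0.23 that were not called (limma adjusted p = 0.181 and 0.211). Among 16 tested retinal determination and furrow genes only ci, the Hedgehog pathway transcription factor (chromosome 4), fell, by 0.21 ± 0.0378 (limma adjusted p = 0.00654), and the median was -0.11. That is 6.25% lower, against 2.45% of all tested probe sets. The ci call ended without Mut-1 (adjusted p = 0.176), without WT-24 (adjusted p = 0.0651) and without the arrays with ring gland transcripts (adjusted p = 0.103, limma). Marker lists of neighbouring tissue were set beside these genes. Antennal disc markers summed to 35479 to 38128 units in C96Y females and 38710 to 39416 in wild-type females, with 2 of 12 called lower, salm and salr themselves. Tracheal markers summed to 25865 to 28970 units in C96Y females and 30213 to 32705 in wild-type females, with 2 of 7 called lower, and neuroblast and brain markers to 12875 to 15496 units in C96Y females and 15028 to 16943 in wild-type females, with 1 of 11 called lower. The groups did not overlap in the antennal and tracheal sums and overlapped in the neuroblast sums. The eye disc list summed to 42132 to 47219 units in C96Y females and 45811 to 50110 in wild-type females, with overlap, and its 2 called members were gl and elav. The shares called lower were 16.7% antennal, 28.6% tracheal, 9.09% neuroblast and 18.2% eye disc, against 2.45% of all tested probe sets. What part the makeup of the discs has in the photoreceptor result was not tested.

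A minority of the chitin and cuticle genes were called, in both directions. Of 30 listed members 23 were tested, and of these 3 rose (reb, Cda5 and Cpr92A), 5 fell and 15 were not called, with a median of -0.074. Thus 13% rose and 21.7% fell, against 4.1% and 2.45% of all tested probe sets. Besides Cpr12A and Cpr97Ea, the falls were of the cuticle protein gene Cpr51A (-0.38 ± 0.0738, limma adjusted p = 0.00931), the chitin deacetylase gene serp (-0.33 ± 0.0564) and the chitin-binding protein gene Gasp (-0.16 ± 0.0269). The gene serp read 4225 and 3754 units in Mut-1 and 4431 and 4592 in Mut-101, against 6141 and 5972 in WT-6 and 4582 and 4744 in WT-24, which shows WT-6 above the rest and overlap between WT-24 and Mut-101. Its call ended without WT-6 (-0.14, adjusted p = 0.383, limma). Cpr92A rose by 0.60 ± 0.140 but overlapped between the groups and was 0.14 without WT-6 (adjusted p = 0.775). The chitin synthase gene kkv (0.062 ± 0.0404) and exp (0.12 ± 0.0661), a relative of reb, were not called. Without the arrays with ring gland transcripts the list had 2 higher and 1 lower, and without Mut-1 2 higher and 2 lower. Cpr51A and Gasp were not called in either case (limma adjusted p = 0.100 and 0.0822 without the ring gland arrays, 0.278 and 0.200 without Mut-1). Both serp and Gasp are also tracheal markers. Among 15 tested activin and BMP signalling genes daw alone passed (6.67% higher, against 4.1% of all tested probe sets). In this list dpp had -0.19 ± 0.0635 (adjusted p = 0.0913, limma) and the type II receptor gene wit -0.12 ± 0.0453 (adjusted p = 0.122).

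Among 28 tested glutathione and redox genes, 3 rose, all glutathione S-transferases of the E class (GstE6, GstE5 by 0.58 ± 0.152 and GstE1 by 0.48 ± 0.108), and the thioredoxin gene Trx2 fell by 0.097 ± 0.0271. Of the tested list, 10.7% rose and 3.57% fell, against 4.1% and 2.45% of all tested probe sets. The GstE5 and GstE1 calls ended without Mut-1 (0.28 and 0.27, limma adjusted p = 0.436 and 0.413). The call of Trx2 ended in 20 of 22 alternatives and that of GstE5 in 18, median centring and quantile normalization among them, and the list had 0 higher and 0 lower without the arrays with ring gland transcripts. Of 53 tested genes of the respiratory chain and ATP synthase, 9 rose (17%, against 4.1% of all tested probe sets) and none fell. The steps were small, with a list median of 0.044. ATPsynCF6 (chromosome 3R), a subunit of ATP synthase, read 7059 and 7411 units in Mut-1 and 7257 and 7673 in Mut-101, against 5893 and 5547 in WT-6 and 6192 and 6004 in WT-24. Both mutant lines were evenly above both wild-type lines, a log2 change of 0.32 ± 0.0349 (limma adjusted p = 0.000160). RFeSP, the Rieske iron-sulphur protein gene, rose by 0.28 ± 0.0436, ox, a complex III subunit gene, by 0.29 ± 0.0545 and COX8, of complex IV, by 0.24 ± 0.0432. A second, dimmer probe set of RFeSP gave 0.032 (unadjusted p = 0.712). With arrays centred on their medians 5 of the 53 rose, without the arrays with ring gland transcripts 4, and without WT-24 1.

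Growth, death and hormone genes moved little. In the lists below that had a rise, 4.76% to 10.5% of the tested members rose, against 4.1% of all tested probe sets. The ecdysone list had 5.26% lower, against 2.45%. Of 21 tested cell cycle and DNA replication genes 1 rose, the replication helicase gene Mcm3 (0.29 ± 0.0720, limma adjusted p = 0.0307), with all C96Y arrays above all wild-type arrays. The Mcm3 call ended in 15 of 22 alternatives, among them leaving out any 1 of the lines. Of 16 tested apoptosis genes 1 rose, morgue (0.18 ± 0.0400), and the tumour necrosis factor gene egr had -0.20 ± 0.0625 (adjusted p = 0.0770). Another, dimmer probe set of egr gave -0.304 (limma unadjusted p = 0.0322). Gadd45 was the 1 call among 14 tested genes of the JNK pathway and regeneration, where the kinase gene bsk had -0.11 ± 0.0344 (adjusted p = 0.0656). Dimmer probe sets of bsk gave larger falls, -0.265 and -0.413 (limma unadjusted p = 0.00552 and 0.0191). Hsp68 was the 1 call among 15 heat shock genes, at 0.36 ± 0.0857 with overlapping groups. Of 19 tested ecdysone response genes, Edg78E (0.38 ± 0.0975) and Eip63E (0.34 ± 0.0889) rose and MsrA fell (-0.35 ± 0.0977), and no member passed once the arrays with ring gland transcripts or the array with fat body transcripts were left out. RpS7 was the 1 call among 18 ribosomal protein genes (0.057 ± 0.0150) and was not called after median centring. No gene passed among 15 insulin and TOR, 10 antimicrobial and immune, and 17 sex determination and dosage compensation genes (limma). Over all tested probe sets 6.55% were called, a share at which lists this short may hold no call. The insulin receptor gene InR had -0.30 ± 0.119 (adjusted p = 0.160, limma).

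The mutant lines were then compared with each other and with the wild-type lines, since the average over lines hides how much each contributes. Mut-1 females differed from the wild-type lines at 727 probe sets (7.08%), 420 of them higher (4.09%) and 307 lower (2.99%), and Mut-101 females at 102 (0.994%), 80 of them higher (0.78%) and 22 lower (0.214%). Both counts use the same wild-type arrays. Leaving out 1 array gave 202 to 535 calls for Mut-1 (202 without Mut-1 replicate 2) and 9 to 62 for Mut-101 (9 without Mut-101 replicate 2). Over the 672 probe sets of the C96Y comparison the median size was 0.317 for Mut-1, against 0.218 for Mut-101, and without line Mut-1 that comparison had 73 calls, against 594 without Mut-101. Tested directly, Mut-1 and Mut-101 females differed at 89 probe sets (0.867%), 63 of them higher in Mut-1 (0.614%) and 26 lower (0.253%). Leaving out 1 array of these lines gave 22 to 47 calls. Of the 89, 54 were among the 672 and 16 among the 36 that changed over 2-fold.

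CG14545 had the largest named difference between the mutant lines on the side higher in Mut-1, 2.65 ± 0.173 on the log2 scale (limma adjusted p = 8.81e-06), followed by reb (2.004 ± 0.233), CG9313 (1.92 ± 0.189), CG10184 (1.59 ± 0.200) and CG17104 (1.36 ± 0.198). CG10184 (chromosome 3R) read 442 and 559.6 units in Mut-1 and 134 and 204 in Mut-101, against 140.1 and 142 in WT-6 and 113 and 123 in WT-24, and CG17104 (chromosome 2L) read 927 and 1348 units in Mut-1 and 436 and 436 in Mut-101, against 306 and 317 in WT-6 and 325 and 333 in WT-24. Both were far higher in Mut-1, while a Mut-101 array of CG10184 lay within the wild-type range. Sil1 (0.58 ± 0.0952, adjusted p = 0.0119) was the only ER folding gene among those described whose lines differed by this test, although Manf (0.22 ± 0.0672) and P58IPK (0.21 ± 0.0829) had differences of the same sign that were not called.

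Among the genes lower in Mut-1, the largest difference was that of vis. The homeobox gene vis (vismay, chromosome 2R) read 74.6 and 72.3 units in Mut-1 and 416 and 444 in Mut-101, against 406 and 394 in WT-6 and 433 and 385 in WT-24, with 84.3 and 54.0 in non-transgenic females. Mut-1 was thus like the non-transgenic discs, and Mut-101 like both wild-type lines. The Mut-1 and non-transgenic values lay below the lowest mean of any tested probe set, 158 units. At that level on every array vis would not have been tested, and the size of its differences is approximate. Mut-1 differed from Mut-101 by -2.55 ± 0.211 (limma adjusted p = 5.58e-05), and the wild-type lines from non-transgenic females by 2.58 (adjusted p = 2.41e-05). The neighbouring gene achi is a near-identical copy of vis, so which of them the probe set reads is uncertain. The gene tut (chromosome 3L) read 270.4 and 219 units in Mut-1 and 1063 and 1039 in Mut-101, against 244 and 228 in WT-6 and 1231 and 1651 in WT-24, with 931 and 384 in non-transgenic females. It was low in 1 mutant and 1 wild-type line and uneven in the non-transgenic discs, and its call between the mutant lines (-2.11 ± 0.368, adjusted p = 0.0174, limma) ended whenever any 1 of their 4 arrays was left out. CG42565 (Mut-1 minus Mut-101 -1.10 ± 0.203) had its 2 highest female arrays in Mut-101. CG12817 (-0.83 ± 0.160) had its 2 lowest in Mut-1, and so had CG13711 (-1.02 ± 0.143), for which a WT-24 array lay within the Mut-101 range.

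**Figure D4:**
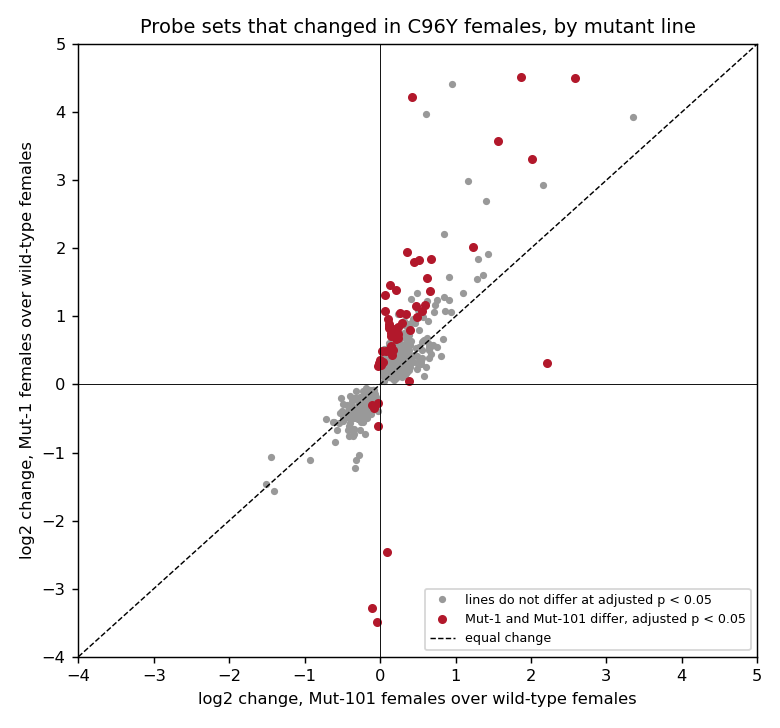
Log2 change of the 672 probe sets that differed between C96Y and wild-type females, in Mut-1 (vertical axis) and Mut-101 (horizontal axis), both against the same 4 wild-type arrays, 1 point per probe set, red where Mut-1 and Mut-101 differed from each other (adjusted p under 0.05), with a dashed line at equal change. The 54 red points include CG9313, CG14545 and reb, which changed more in Mut-1, and vis, which was lower only in Mut-1.

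Wild-type proinsulin alone gave few differences. The 4 wild-type females differed from the 2 non-transgenic females at 24 probe sets (0.234%; limma), of which 15 were higher (0.146%) and 9 lower (0.0877%). With each array centred on its median the split was 11 higher and 11 lower. The named genes above, other than vis, were not among them: CG9313 had 0.0031, Sil1 -0.12, AsnS -0.19 and Hsc70-3 -0.043 (adjusted p = 0.998, 0.735, 0.742 and 0.783). This comparison shares its wild-type arrays with the C96Y comparison and has 2 arrays on the non-transgenic side, so its count of calls cannot be set against the 672.

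By chromosome, the share of probe sets called between C96Y and wild-type females was 6.51% to 7.58% on the X and the large autosome arms and 16.4% on chromosome 4, the small and largely heterochromatic autosome. Of 55 tested chromosome 4 probe sets, 1 was higher and 8 were lower in C96Y females, ci and CG33978 among them. Their median log2 change was -0.134, against -0.0013 to 0.0129 on the other arms, and the median of the same 55 between wild-type and non-transgenic females was 0.0224.

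The female changes were then looked for in male discs, which are separate arrays of the same lines. Of the 672 probe sets, 663 had the same sign in males (98.7%, against 73.1% of all tested probe sets), and 396 passed the test in males as well (58.9%, against 8.13% of all tested probe sets). Among the 36 that changed over 2-fold in females, 30 passed in males. No probe set passed the test of the difference between the female and the male C96Y effect (0 of 10262, limma). An unadjusted p under 0.05 was found for 341, fewer than the 1 in 20 that chance alone gives. The smallest p belonged to CG14545, whose female effect was below its male effect by 1.10 ± 0.173 (unadjusted p = 2.43e-05, adjusted p = 0.249, limma). It averaged 709 ± 593 units in C96Y females and 53.4 ± 3.73 in wild-type females, against 1549 ± 1252 in C96Y males and 59.0 ± 4.92 in wild-type males (SD, n = 4 each).

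CG17104, Mrp4, CG42233 and bdl had the next smallest p-values for that difference, each with an adjusted p of 0.999 (limma). Mrp4, a transporter gene, had a log2 C96Y effect of 0.80 in females and 1.56 in males. The effect on CG17104 was 1.13 in females and 2.05 in males. For bdl (borderless, an immunoglobulin-domain gene of photoreceptor axons), it was -0.25 in females, not called, and -0.73 in males. Other leading genes had effects of the same sign in both sexes. The log2 effect on Sil1 was 0.88 in females and 1.10 in males, that on AsnS 1.004 in females and 1.23 in males, and that on daw 2.05 in females and 2.71 in males. Pepck1 had 1.49 in females and 1.504 in males, and CG13840 -1.49 in females and -2.02 in males. NimC1 was -1.49 in females and -0.80 in males. Of the 9 probe sets with opposite signs, CG32249, 1630238_at and 1626830_at changed over 2-fold in females, and all 3 were high only in Mut-1 females.

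**Figure D5:**
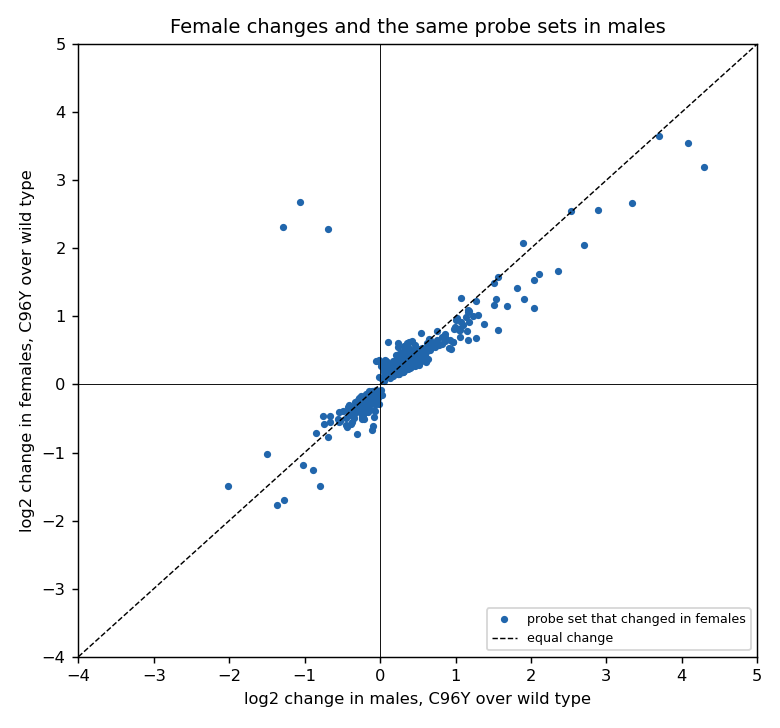
Log2 change, C96Y over wild-type proinsulin, of the 672 probe sets that differed in females, in females (vertical axis) and in males (horizontal axis), 1 point per probe set, with a dashed line at equal change. Of the points, 663 have the same sign in both sexes, and the 3 high points at the upper left are CG32249 and the unnamed probe sets 1630238_at and 1626830_at, which rose in Mut-1 females only.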

How the data were processed

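RNA of eye imaginal discs was extracted by magnetic bead lysis (MELT), amplified and biotin-labelled with NuGEN Ovation kits and hybridised to Affymetrix Drosophila arrays, per the labels' protocols. The deposited values are linear intensities of 18952 probe sets on 20 arrays (5 lines, both sexes, 2 biological replicates each), made with MAS5 per the submitters' processing notes; its scaling target, detection calls and background are not given in the sources used here, so the number of arrays limits the precision. Intensities were taken to log2 with no pseudocount. Of 13646 probe sets with 1 gene, the brightest per gene was kept, with unnamed ones (17104 in all), and the upper 60% by mean (10262) were tested. The platform table gave 402 probe sets several genes and 4721 none.

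A mean per line and sex was fitted to all 20 arrays with limma 3.58.1 (R 4.3.3, intensity trend, 10 residual degrees of freedom), with Benjamini-Hochberg adjustment over 10262 probe sets and a threshold of 0.05. This p measures the spread between 2 arrays of a line, not between insertion lines. ± after a log2 change is its SE. Named genes were the 12 largest named rises and falls with the same sign in all line pairings, the 3 list members at most with the smallest p per list, Hsc70-3, and 5 per direction between mutant lines, or the 5 smallest p between sexes; other list members, unnamed probe sets and chromosome 4 were chosen after their values were seen. Members and lists were chosen with earlier results of these data known. Alternatives covered scaling, filter, offset, arrays fitted, replicate blocks, lines as replicates, and each line or array left out. Leaving out arrays with ring gland or fat body transcripts (over 1000 units of spok or Fbp1) was added after seeing the data.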

Additional observations from a re-analysis of the deposited data

Results flagged for a closer look

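Mut-1 and Mut-101 females differed from each other for 16 of the genes and probe sets described, by the test of that difference (limma). Higher in Mut-1 were CG14545 (Mut-1 minus Mut-101 2.65 on the log2 scale, adjusted p = 8.81e-06), CG9313 (1.92), reb (2.004), CG10184 (1.59), CG17104 (1.36), Mrp4 (1.33), CG13272 (0.77), Sil1 (0.58), and the unnamed probe sets 1624819_s_at (1.30) and 1630238_at (3.80). Lower in Mut-1 were vis (-2.55, adjusted p = 5.58e-05), tut (-2.11), CG42565 (-1.10), CG13711 (-1.02), CG12817 (-0.83) and bdl (-0.71). The other adjusted p-values lay between 0.000346 and 0.0455.

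In 8 of 236 groups of 4 arrays checked, 1 array lay far from the other 3, where chance alone gives about 1 in 20. In C96Y females, Mut-101 replicate 2 had 7334 units of the proteasome gene Prosalpha3, against 6786 to 6864 on the others, and Mut-1 replicate 1 had 2691 units of the immune factor gene Dif, against 2797 to 2814. In wild-type females, WT-24 replicate 2 had 916 units of Cpr97Ea, against 1114 to 1127, and WT-6 replicate 1 had 8881 units of Sec61beta, against 8494 to 8546. WT-6 replicate 2 had 1027 units of foxo, against 1149 to 1174, and 2151 units of Sec24CD, against 2035 to 2048. WT-24 replicate 1, the array with fat body transcripts, had 1235 units of bdl, against 1030 to 1061, and 7080 units of gl, against 5993 to 6143.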

How the results depend on the processing

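No named gene or probe set changed sign while called. The 672 calls between C96Y and wild-type females became 613 with median centring, 594 with quantile normalization, 561 without the filter, 675 with an offset of 50, and 594 without Mut-101. They became 370 when only the female arrays were fitted, 73 without Mut-1, 248 without WT-6, 218 without WT-24, 172 without the arrays with ring gland transcripts, 352 without the array with fat body transcripts, 3 with lines as replicates, and 245 (without Mut-101 replicate 2) to 709 (without Mut-1 replicate 1) with 1 array left out. Mut-1 against the wild-type lines (727) gave 474, 423, 336, 306 and 447 with fewer arrays in the fit, without WT-6, without WT-24, without the ring gland arrays and without the fat body array, and 202 (without Mut-1 replicate 2) to 535 with 1 array left out. Mut-101 against the wild-type lines (102) gave 49, 49, 54, 20 and 62 in the same order, and 9 (without Mut-101 replicate 2) to 62. Wild-type against non-transgenic females (24) gave 10, 10, 9, 7 and 12 in that order, and 6 to 50 (without non-transgenic replicate 2 or 1). Its balance of 15 higher and 9 lower became 4 and 6 with fewer arrays in the fit or without WT-6, and 3 and 6 without WT-24. Mut-1 against Mut-101 (89) gave 55 with fewer arrays in the fit and 22 to 47 with 1 array left out. The female minus male difference (0) gave 0 to 3 with 1 array left out, 3 of them without WT-24 male replicate 1. The cause of these moves was not tested, and each fit with arrays or lines left out also had fewer arrays.

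Samples with the same title number did not deviate together (r = -0.239 to 0.274 over 6 pairs of groups), so the title numbers were not taken to pair the arrays. The description's numbers were not checked in this way. With the title number as a replicate block the counts were 556 for C96Y against wild-type females and 66 for Mut-101. With the description's number as a replicate block they were 53 for C96Y against wild-type females, 3 for the sex difference, 114 for Mut-1, 13 for Mut-101, 28 between the mutant lines and 4 for wild-type against non-transgenic females.

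Of 81 named called genes and probe sets, 40 passed whichever array was left out, 21 passed without Mut-1, 64 without Mut-101, 40 without WT-6, 35 without WT-24, 31 without the ring gland arrays, 46 without the fat body array, 17 with the description's number as a block and 3 with lines as replicates. Dim probe sets carry no detection call, so their folds have an unknown floor.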

Other observations

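Other genes rose in C96Y females, with the same sign in both mutant lines, and stand in none of the lists. They were picked after their values were seen. Dgp-1, which encodes a GTP-binding protein, averaged 6148 units in C96Y females against 2619 in wild-type females, log2 1.23 ± 0.0541 (limma adjusted p = 1.55e-08), with 1.35 in Mut-1 and 1.10 in Mut-101. Cul2, a cullin of a ubiquitin ligase, averaged 6123 units in C96Y females against 2878 in wild-type females, log2 1.08 ± 0.0741 (limma adjusted p = 2.09e-06), with 1.25 in Mut-1 and 0.91 in Mut-101. Tpc1, a mitochondrial thiamine pyrophosphate carrier, averaged 2754 units in C96Y females against 1365 in wild-type females, log2 0.997 ± 0.102, and the cytochrome P450 gene Cyp4p1 1725 units in C96Y females against 831 in wild-type females, log2 1.02 ± 0.104. The epithelial gene ect averaged 583 units in C96Y females against 298 in wild-type females, log2 0.97 ± 0.0947, with 1.08 in Mut-1 and 0.86 in Mut-101. Both lines were set against the same wild-type arrays.

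Further genes outside the lists rose as well. The gene scf, whose product is a calcium-binding protein of the ER, averaged 4423 units in C96Y females against 2467 in wild-type females, log2 0.82 ± 0.0786. The sulphhydryl oxidase gene Alr averaged 2586 units in C96Y females against 1492 in wild-type females, log2 0.78 ± 0.0752 (limma adjusted p = 4.95e-05), and the transporter gene Orct2 3195 units in C96Y females against 1772 in wild-type females, log2 0.81 ± 0.0665. In males the log2 changes were 1.28 for Dgp-1, 1.19 for Cul2, 1.13 for Tpc1, 0.98 for scf, 0.76 for Alr and 1.05 for Orct2.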
